A study of Mus musculus with 5 samples.

Results

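The 62 genes described here are the replication-dependent histone genes that could be measured, cell by cell, in embryonic mouse cerebellum. They were chosen by symbol alone, as every gene of the table whose name joins Hist1, Hist2, Hist3 or Hist4 to one of the histone types H1, H2A, H2B, H3 or H4, and they are 62 of the 15971 genes measured. There were 6 H1, 15 H2A, 16 H2B, 12 H3 and 13 H4 genes. Of the 62, 52 carry the prefix Hist1, 8 Hist2, 1 Hist3 and 1 Hist4. In the GENCODE M21 annotation, 70 genes fit the naming pattern, 67 of them protein coding, and 61 of those 67 were in the table.

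Single-cell RNA sequencing had been done on 5 libraries with 10x Chromium 3′ kits of versions v3 and v3.1; the labels do not tie a version to a library. The labels give 2 RL libraries of embryonic day 13 (e13), 2 RL libraries of e14 and 1 EomesCreER library of e16, which comes from a mouse line with a Cre recombinase driven from the Eomes gene; all are labelled cerebellum. The RL titles also carry the letters UT, which the labels do not explain. The title of RL e13 replicate 2 says e13, which was used, although its age tag says e14. The e16 library has no replicate, and no label says that the others are different animals. For comparisons of cells within libraries, the p-values therefore reflect how the difference varied from library to library. For e14 against e13 they reflect the spread of the libraries themselves. Either spread may be technical.

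The libraries held 6987 cells, from 706 to 2676 each, with 13607965 to 33502151 UMIs (unique molecular identifiers, which count molecules) per library and medians of 10346 to 19970 UMIs per cell. Libraries shared 6 cell barcodes. The e16 library stood apart: its S class, defined below, held 4394 CPM of 6 neuronal markers against 222 to 1123 in the RL libraries. It also held 218 CPM of 4 progenitor markers against 1486 to 4447. RL e13 replicate 1 held hardly any postmitotic neurons, 6 cells by the definition below. Summed markers of microglia reached 2.30 CPM, of endothelium 15.2 CPM, of oligodendrocytes 17.7 CPM and of red blood cells 55.4 CPM at most in the S class, the cells without Pcna and Mcm5, the G2/M class or the postmitotic class of any library. Roof plate markers (Ttr, Lmx1a and Msx1) were higher, at 504 CPM in the cells without Pcna and Mcm5 of RL e14 replicate 2 against 18.1 CPM in its S class, and at 11.6 to 183 CPM in those cells of the other libraries; their part in the results was not tested.

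Core histones H2A, H2B, H3 and H4 form the nucleosome, and the linker histone H1 binds the DNA that enters and leaves it. A cell that copies its genome needs new histones for both copies, and these clustered genes supply them: their transcription starts on entry into S phase through Npat, which is activated by cyclin E and Cdk2, and their messages are degraded when replication ends. Their transcripts usually end in a conserved stem-loop bound by Slbp rather than in a poly(A) tail, whereas the 3′ kit primes from poly(A). What share of each gene's transcripts carried a tail was not measured, so the order of the genes by UMI count is not read as their order in the cell.

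The stem-loop is shown first because it is the feature that sets these genes apart. The search took a stem of GGCTCT or GGCCCT, a loop of TTTN, with any base at N, and the reverse complement of the stem, on the sense strand of the annotated transcripts. They occurred in 39 of the 62 genes, and in 47 of all 58797 protein-coding transcripts (0.0799%). Of the 45 protein-coding genes with a match, 42 fit the naming pattern. Windows of a pair of H1 genes, of an H2A, an H3 and an H4 gene and of the Hist3 gene are given below 5′ to 3′ with the stem-loop in capitals.
Hist1h1e: cccaaaGGCTCTTTTCAGAGCCacccacaa
Hist1h1c: ccaaaaGGCTCTTTTCAGAGCCaccactcc
Hist1h2ae: aacaaaGGCTCTTTTCAGAGCCattcactt
Hist1h3c: aaaaaaGGCTCTTTTAAGAGCCacctaaga
Hist1h4d: accaaaGGCCCTTTTCAGGGCCactacctt
Hist3h2ba: cccaaaGGCTCTTTTCAGAGCCaccttcca
The form with GGCCC was found in 9 H4 genes and in no gene of another family. The Hist3h2ba window carries the same 16 letters as Hist1h1e and Hist1h2ae. The remaining 23 genes had no match, which says only that these letters are not in the annotated transcript: that of Hist1h1b ends at its stop codon.

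Promoters were read from RefSeq (GRCm38.p6), from 250 bases before to 50 after the start, and 56 of the 62 genes matched an entry. The octamer ATTTGCAT, searched on both strands like the other motifs, was in 11 of 56 (19.6%) against 1.74% of 32851 promoters. It was found in 5 of 14 H2A and 6 of 14 H2B promoters and in none of the H1, H3 or H4 promoters. Promoters of neighbouring genes can overlap, so these are not all separate sites. The same octamer was counted for Hist1h2ae and for Hist1h2bg, whose 150 bases lie at chr13:23571250-23571399 (plus strand). Another was counted for Hist1h2ah and for Hist1h2bk, whose 150 bases lie at chr13:22035671-22035820 (plus strand). TATAAA was in 33 of 56 (58.9%) against 13.6%. CCAAT was in 47 of 56 (83.9%) against 37.4%, and 3 of 12 H4 promoters held it against all 44 of the others. The 150 bases before the start are shown for the gene with the most UMIs, for an H2A gene with the octamer, and for Hist3h2ba, which behaved differently; capitals mark ATTTGCAT, TATAAA and CCAAT on either strand. They lie at chr13:21780626-21780775 (minus strand), chr13:23571221-23571370 (minus strand) and chr11:58948761-58948910 (plus strand).
Hist1h1b: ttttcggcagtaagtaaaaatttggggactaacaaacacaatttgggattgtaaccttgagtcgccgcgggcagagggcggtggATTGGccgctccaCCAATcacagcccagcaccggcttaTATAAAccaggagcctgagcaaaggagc
Hist1h2ae: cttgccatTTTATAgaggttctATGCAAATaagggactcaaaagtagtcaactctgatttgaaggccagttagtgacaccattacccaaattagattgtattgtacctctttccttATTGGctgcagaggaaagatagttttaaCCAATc
Hist3h2ba: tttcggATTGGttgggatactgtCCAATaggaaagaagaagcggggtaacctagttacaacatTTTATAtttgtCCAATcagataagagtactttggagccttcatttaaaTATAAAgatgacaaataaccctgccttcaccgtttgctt
All 3 windows hold TATAAA and CCAAT on either strand, the Hist3h2ba window included, so the presence of these letters does not separate it from the other genes shown. In the Hist1h2ae window the only TATAAA match is on the opposite strand, at the end far from its start. The Hist1h2bg window holds the same match. The matches are descriptions of letters and not of bound sites.

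The Hist1 genes lie on chromosome 13 (GRCm38), mostly in 3 blocks. From 21715763 to 21833507 there were 16 of them, from 22035164 to 22043676 there were 5, and from 23531050 to 23764406 there were 29. Hist1h2ba (23933773 to 23934156), a testis H2B, and Hist1h2al (51202727 to 51203065), annotated as a processed pseudogene, lay apart. The 8 Hist2 genes lay on chromosome 3 between 96219865 and 96270132, Hist3h2ba on chromosome 11 (58948920 to 58949533) and Hist4h4 on chromosome 6 (136801553 to 136804415). The transcripts of these genes resemble each other, 5 overlap another gene on their own strand (Hist1h2be and Hist1h1e overlap each other) and 18 overlap one on the opposite strand; the sources used here do not say how the authors' counting split such reads, so the values of single copies are uncertain.

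The 62 genes gave 429589 UMIs. The 6 H1 genes held 48.0% of them, led by Hist1h1b with 99248 UMIs and Hist1h1e with 70057. Among the core histones, Hist3h2ba (H2B) gave 42344 UMIs, Hist1h2ae (H2A) 31877 and Hist1h4d (H4) 20733. Under 100 UMIs each came from Hist1h2ba (36), Hist1h2ao, Hist1h4m (34) and Hist1h1t (11), the testis-specific H1. Hist1h1e was found in 95.5% of cells and Hist3h2ba in 92.6%, so most cells outside S phase had UMIs of these genes too.

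Linkage to S phase was measured with Pcna, the sliding clamp of the replication fork, and Mcm5, a subunit of the replicative helicase. Each cell was thinned to 5000 UMIs, which left out 49 shallower cells, and the S class was the cells with at least 1 UMI of both genes. It held 38 cells in the e16 library and 172, 102, 111 and 211 in RL e14 replicates 1 and 2 and RL e13 replicates 1 and 2. The comparison class, with no UMI of either gene, held 2271, 582, 415, 345 and 1046 cells. The postmitotic cells defined below are part of it, with 2143, 219, 177, 6 and 293 cells. Cells with both Mki67 and Top2a, which also enter the G2/M class below, are another part, with 40, 87, 51, 69 and 195 cells. The comparison class is therefore not free of cycling cells, and the summed histone level of this part is given below. The cut is not sharp, since 206 of the 634 S class cells had exactly 1 UMI of each gene. In the e16 library these were 18 of 38 cells. A further 1645 cells had only 1 of the genes. Levels are unthinned means over cells, scaled to 1000000 UMIs (CPM).

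Histone messages were higher in the S class in every library. The summed level of the 62 genes was 9037 CPM in the e16 library, 8521 and 5082 CPM in RL e14 replicates 1 and 2, and 4879 and 7709 CPM in RL e13 replicates 1 and 2. Without Pcna and Mcm5 it was 2062, 2590, 1881, 1956 and 2889 CPM. The lowest S class value lay above the highest of the other class. Cells with more Pcna and Mcm5 UMIs did not always have more: in RL e14 replicate 2 the sum was 1881, 3421, 4643, 3901 and 5626 CPM at 0, 1, 2, 3 and 4 or more UMIs.

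By limma on log2(CPM + 1) with the library as a block (n = 5 libraries), 50 of the 59 histone genes tested were higher in the S class and 3 lower, at a Benjamini-Hochberg adjusted p under 0.05 over all genes. Of all 12498 genes tested, 10.3% were higher and 11.5% lower. The median log2 difference was 1.49 over the histone genes and -0.08 over all genes. Without the library block 25 were called higher, and without RL e14 replicate 1 it was 37.

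All 5 H1 genes tested rose. Hist1h1b (chr13:21779883-21780625) was at 2239, 2030, 1692, 1940 and 2284 CPM in the S class, in the library order used above, against 66.5, 362, 335, 540 and 567 CPM. The groups did not overlap, and the log2 difference was 2.74 ± 0.42 (SE, limma adjusted p = 0.0042). Hist1h1a, an H1 at a lower level, differed by 2.87 and Hist1h1d by 2.02. Hist1h1e and Hist1h1c rose less, by 1.21 and 0.82; Hist1h1c was at 228 ± 31.9 CPM against 128 ± 6.8 CPM (SD, n = 5).

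Of the core histones, all 15 H2A genes were higher, with Hist1h2an (2.57), Hist1h2ab (2.49) and Hist1h2af (2.49) leading. The calls of Hist1h2ag and Hist1h2ao were lost in 6 of 16 and 5 of 10 alternative settings, and that of the H3 gene Hist1h3c in 6 of 16; among the libraries, leaving out RL e14 replicate 1 or RL e13 replicate 2 ended all 3 calls, and leaving out RL e14 replicate 2 those of Hist1h2ag and Hist1h3c. The counts were 11 of 15 for H2B, 10 of 12 for H3 and 9 of 12 for H4. By cluster, 47 of the 49 Hist1 genes tested rose. The 6 genes not called were Hist2h4, Hist4h4, Hist2h2be, Hist1h4i, Hist2h3c2 and Hist2h3c1, with log2 differences of 0.72, 0.49, 0.40, 0.33, 0.09 and 0.05, and 4 of these 6 are Hist2 genes.

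The 3 genes that fell were all H2B genes. Hist3h2ba was at 454, 143, 132, 127 and 134 CPM in the S class and at 906, 298, 381, 168 and 238 CPM in cells without Pcna and Mcm5, lower in 5 of 5 libraries. Its log2 difference was -0.96 ± 0.14 (SE, limma adjusted p = 0.0032). It ranged from -1.62 to -0.35 over 16 alternatives, among them leaving the postmitotic cells out of the comparison class. Hist2h2bb differed by -1.08 and Hist1h2bc by -0.52, at mean levels of 2.89 against 7.64 CPM and 22.2 against 29.0 CPM, and their calls were lost in 4 of 15 and 8 of 16 alternative settings. The Hist1h2bc call was lost without any 1 of the 4 RL libraries, while that of Hist3h2ba was lost in 1 of 16 settings, without the library block.

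The machinery around these genes moved as follows, each list given as chosen with earlier results of these data known. Of 15 genes of histone transcription and 3′ end processing tested, 10 were higher in the S class and none lower. Ccne2 and Ccne1, the E cyclins, rose by 3.51 and 3.28 and Slbp, the stem-loop binding protein, by 1.64 ± 0.12 (SE, limma adjusted p = 0.000148), from 12.4 ± 4.8 to 40.8 ± 15.1 CPM (SD, n = 5). Npat and its partner Casp8ap2 differed by 1.03 and 1.32. All 8 histone chaperones were higher, led by Chaf1b (3.24), a subunit of the complex that loads new H3 and H4 behind the fork. Of 11 histone genes outside the naming pattern, listed as replacement histones, 2 were higher and 1 lower: H2afz differed by 0.69 and H3f3b by -0.21. The list is mixed, and its genes H2afx and Cenpa changed with the cycle classes described below. The S phase list (15 of 15 higher, Cdc6 by 4.25) holds Pcna and Mcm5, which define the class.

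The S class was not uniform. It was split, after the data had been seen, by Mki67 and Top2a, genes that mark proliferating cells and peak in G2 and mitosis. Cells with all 4 genes numbered 18, 66, 30, 45 and 86 in the library order above, and cells with Pcna and Mcm5 but neither of the others 16, 63, 45, 36 and 69. The summed histone level was 15843, 14873, 9581, 9174 and 14133 CPM with all 4 genes. With Pcna and Mcm5 only it was 2381, 2296, 1872, 984 and 2042 CPM. Cells with Mki67 and Top2a only were between, at 5374, 8084, 6481, 6438 and 8899 CPM, and cells with none of the 4 genes were at 2005, 1439, 1192, 837 and 1357 CPM. The order all 4 genes, then Mki67 and Top2a only, then Pcna and Mcm5 only, then none held in each of the 5 libraries.

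**Figure D1:**
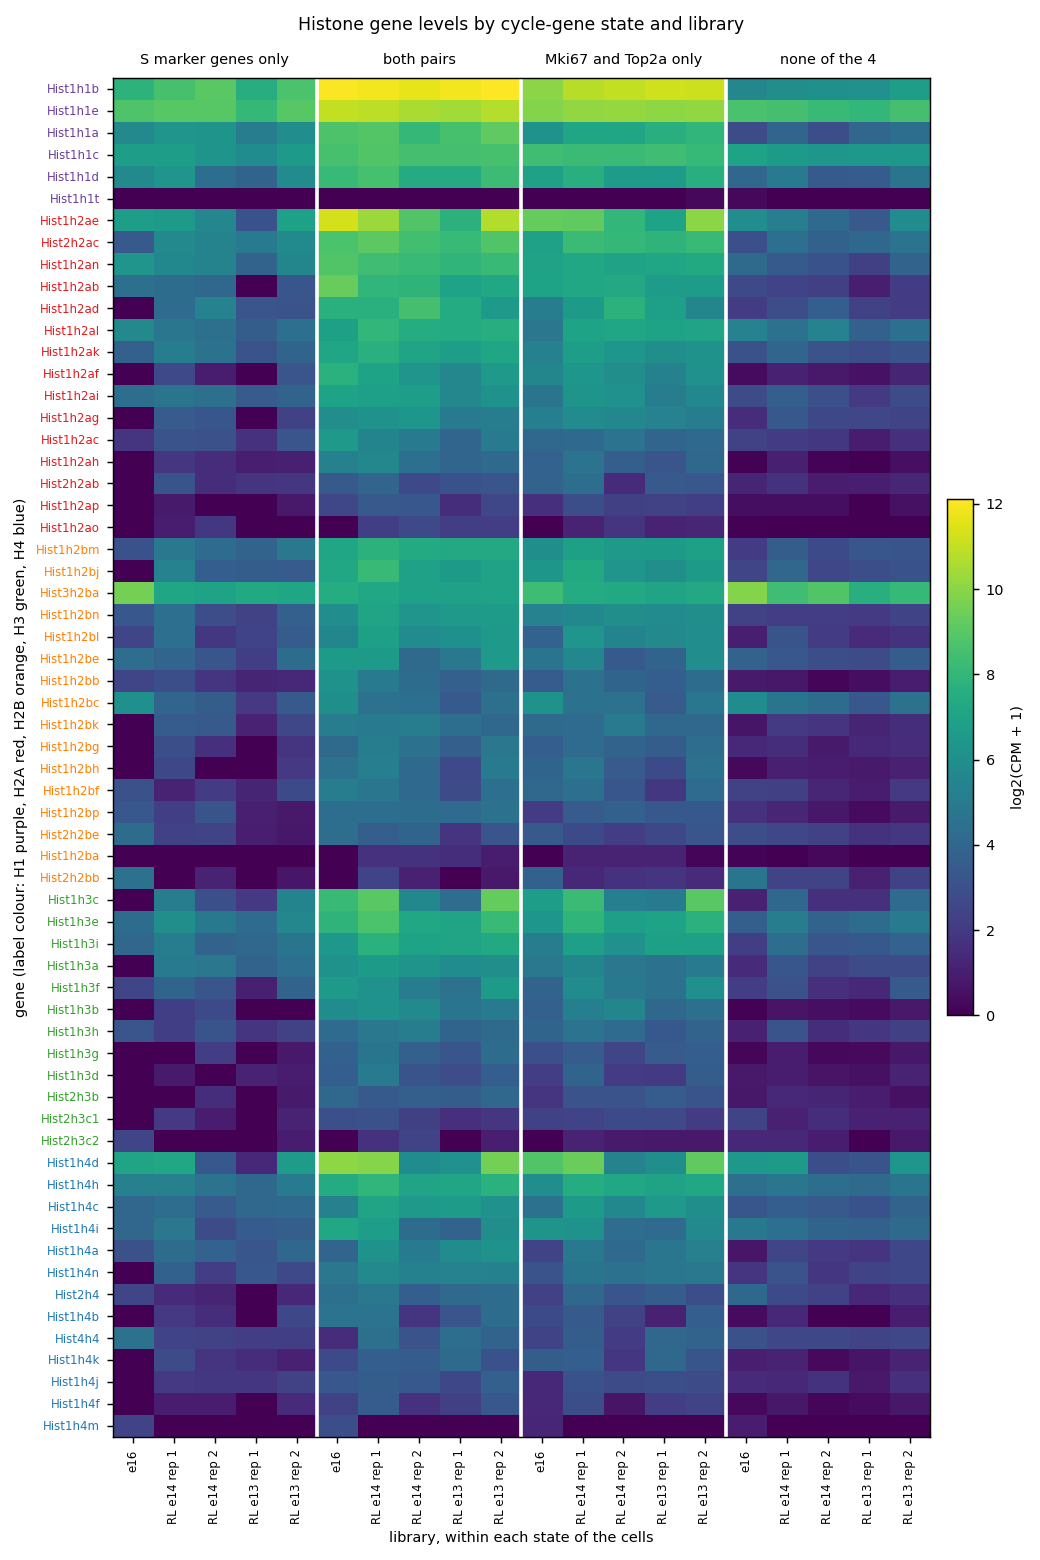
Colour shows the level of each histone gene, as log2(CPM + 1), in each library (columns) within 4 states of the cells: Pcna and Mcm5 only (S marker genes only), all 4 genes (both pairs), Mki67 and Top2a only, and none. Most rows are brightest with all 4 genes and darker with Pcna and Mcm5 only or with none, while Hist3h2ba is brightest in cells with none in each library.

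Between the cells with and without Mki67 and Top2a within the S class in the 4 RL libraries (the e16 library had under 20 cells in each), 54 of 59 histone genes tested were higher in cells with all 4 genes and 0 were lower. Of all 12245 genes, 6.06% were higher and 4.62% lower. No histone gene reached the lower side at an unadjusted p under 0.05, and the median log2 difference was 2.59 over the histone genes and -0.06 over all genes. All 49 Hist1 genes tested were called. The number called ranged from 42 to 56 over 14 alternatives.

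Hist1h1b was at 3793, 3222, 3824 and 4422 CPM with all 4 genes in RL e14 replicates 1 and 2 and RL e13 replicates 1 and 2, and at 385, 513, 184 and 415 CPM with Pcna and Mcm5 only. The groups were far apart, by 3.43 ± 0.13 on the log2 scale (SE, n = 4, limma adjusted p = 5.2e-18, a value that leans on the spread pooled over genes). The H2A genes Hist1h2af (4.65), Hist1h2ab (4.64) and Hist1h2ae (3.84) and the H3 gene Hist1h3b (4.16) differed more. Hist1h2af was at 128, 79.6, 47.9 and 88.7 CPM against 5.28, 0.986, 0 and 8.23 CPM. Hist1h1e and Hist1h1c differed by 1.91 and 2.24.

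The 5 genes not called were Hist3h2ba (-0.14), Hist2h2bb (0.62), Hist2h2ab (1.07), Hist2h3c2 (1.07) and Hist2h3c1 (1.19). Of the regulators, Slbp was at 49.7 ± 14.8 CPM against 35.1 ± 13.6 CPM (SD, n = 4), a log2 difference of 0.52 (limma adjusted p = 0.0496). Npat (0.25) and Casp8ap2 (0.05) did not pass the test. The S phase genes Rrm2 and Tyms, which act in nucleotide synthesis, rose by 1.68 and 1.54, and H2afx, the replacement H2A of the damage response, by 2.09. In all, 10 of 15 S phase genes, 7 of 8 chaperones, 8 of 11 replacement histones and 4 of 15 transcription and processing genes were higher. All 15 G2 and M genes were higher, which include the genes of the split. Cells with all 4 genes were deeper, with median UMIs of 20708.5, 25727.5, 23306 and 21960.5 against 15992, 21217, 18975 and 17482; the part of depth in these differences was not tested beyond the alternatives, in one of which the 5% deepest cells were left out.

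**Figure D2:**
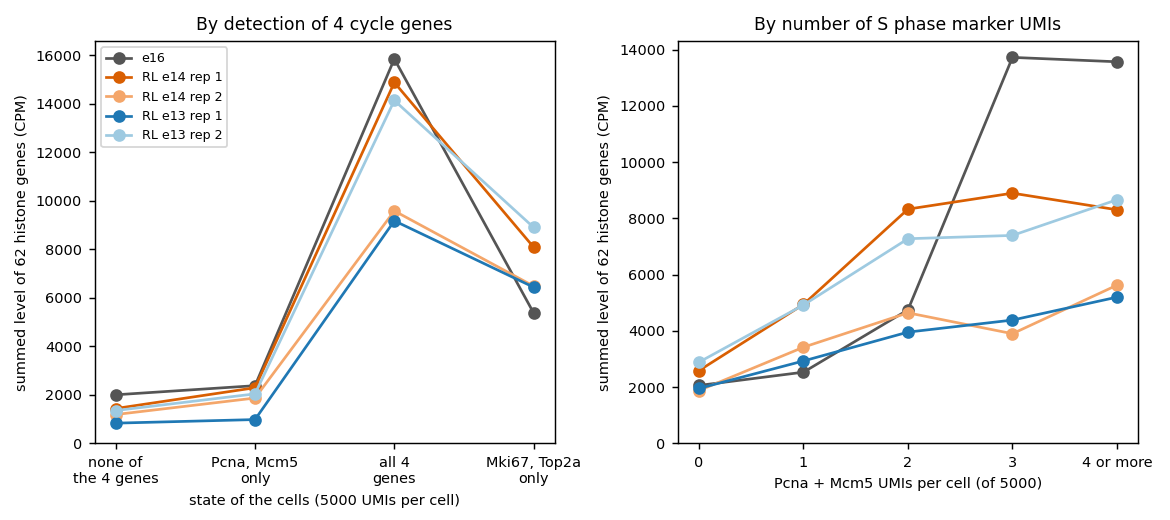
The left panel plots the summed level of the 62 histone genes (CPM) in cells with none, some or all of the 4 cycle genes, 1 line per library, and the right panel plots it against the number of Pcna and Mcm5 UMIs per cell. All 5 lines peak where all 4 genes were detected, between 9174 and 15843 CPM, and lines in the right panel are not monotone in every library.

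The G2/M class had Mki67 and Top2a and was not in the S class. Against it, the S class as defined by Pcna and Mcm5 was not the higher one. The G2/M class kept S phase messages: Rrm2 averaged 361 CPM against 428 CPM in the S class (n = 5), and Tyms 250 against 304 CPM. Pcna and Mcm5 averaged 84.0 and 108 CPM, against 219 and 273 CPM in the S class and 19.0 and 29.8 CPM in the comparison class above. The G2/M class may thus hold S phase cells, and their part was not tested. The summed level in the G2/M class was 8876, 10662, 8111, 7417 and 10874 CPM, above the S class in each RL library and below it in the e16 library. Of 58 histone genes tested (n = 5), 0 were higher in the S class and 22 lower, where 4.52% and 4.39% of all 12314 genes were. The median log2 difference was -0.45; Hist1h3c differed by -0.82, Hist1h4h by -0.67, Hist1h4d by -0.63, Hist1h1c by -0.58 and Hist1h1b by -0.37, while Hist1h1a was at -0.04. At an unadjusted p under 0.05 there were 35 genes.

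The direction changed with the definition of the classes. When the S class was set by 4 or more of 13 other S phase genes, 18 histone genes were higher in it and 0 lower, with Hist1h1b at 1.22. Without thinning, 19 were higher and 1 lower, with Hist1h1b at 1.01. With Pcna and Mcm5 absent from the G2/M class, 1 was higher and 2 lower. The number lower was 37 without the e16 library, 13 without RL e14 replicate 1, 10 without RL e14 replicate 2, 13 without RL e13 replicate 1, 12 without RL e13 replicate 2, 13 from summed UMIs and 1 without the library block. The S phase list was higher in the S class for 13 of 15 genes, the G2 and M list lower for 15 of 15, and 7 of 11 replacement histones were lower, among them Cenpa, the centromeric H3, by -3.19 and H2afx by -1.44.

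Residual signal was read in a postmitotic class. After thinning, its cells had no UMI of Pcna, Mcm5, Mki67 and Top2a. They also had at least 5 UMIs over Stmn2, Mapt, Gap43, Dcx, Ina and Nefl, genes of the neuronal cytoskeleton and growth cone. There were 2143 such cells in the e16 library, 219 and 177 in RL e14 replicates 1 and 2, and 293 in RL e13 replicate 2. RL e13 replicate 1, with 6, was left out of the test. The levels are unthinned, and without thinning some cells of the postmitotic class had Mki67 UMIs. Their shares were 1.31% in the e16 library, 8.22% and 6.21% in RL e14 replicates 1 and 2, and 15.02% in RL e13 replicate 2. The class is therefore not shown to be free of cycling cells, and the part of such cells in the residual levels was not tested. The summed histone level was 2009, 1509, 1309 and 1340 CPM in these 4 libraries, against 9037, 8521, 5082 and 7709 CPM in their S class. Without Hist3h2ba it was 1078, 1046, 670 and 941 CPM.

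Of 58 histone genes tested (n = 4 libraries), 51 were lower in postmitotic cells and 2 higher, where 18.7% and 19.7% of all 12409 genes were. The median log2 difference was -2.49, against 0.05 over all genes. All 5 H1 genes, all 14 H2A genes, 12 of 15 H2B genes and 10 of 12 H3 and H4 genes each were lower. Hist1h1b was at 47.5, 37.1, 40.7 and 71.9 CPM, against 2239, 2030, 1692 and 2284 CPM in the S class. It differed by -5.39 ± 0.12 (SE, limma adjusted p = 1.5e-06), the largest fall of the set. Hist1h2af (-5.11), Hist1h2ab (-4.85) and Hist1h1a (-4.77) came next.

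**Figure D3:**
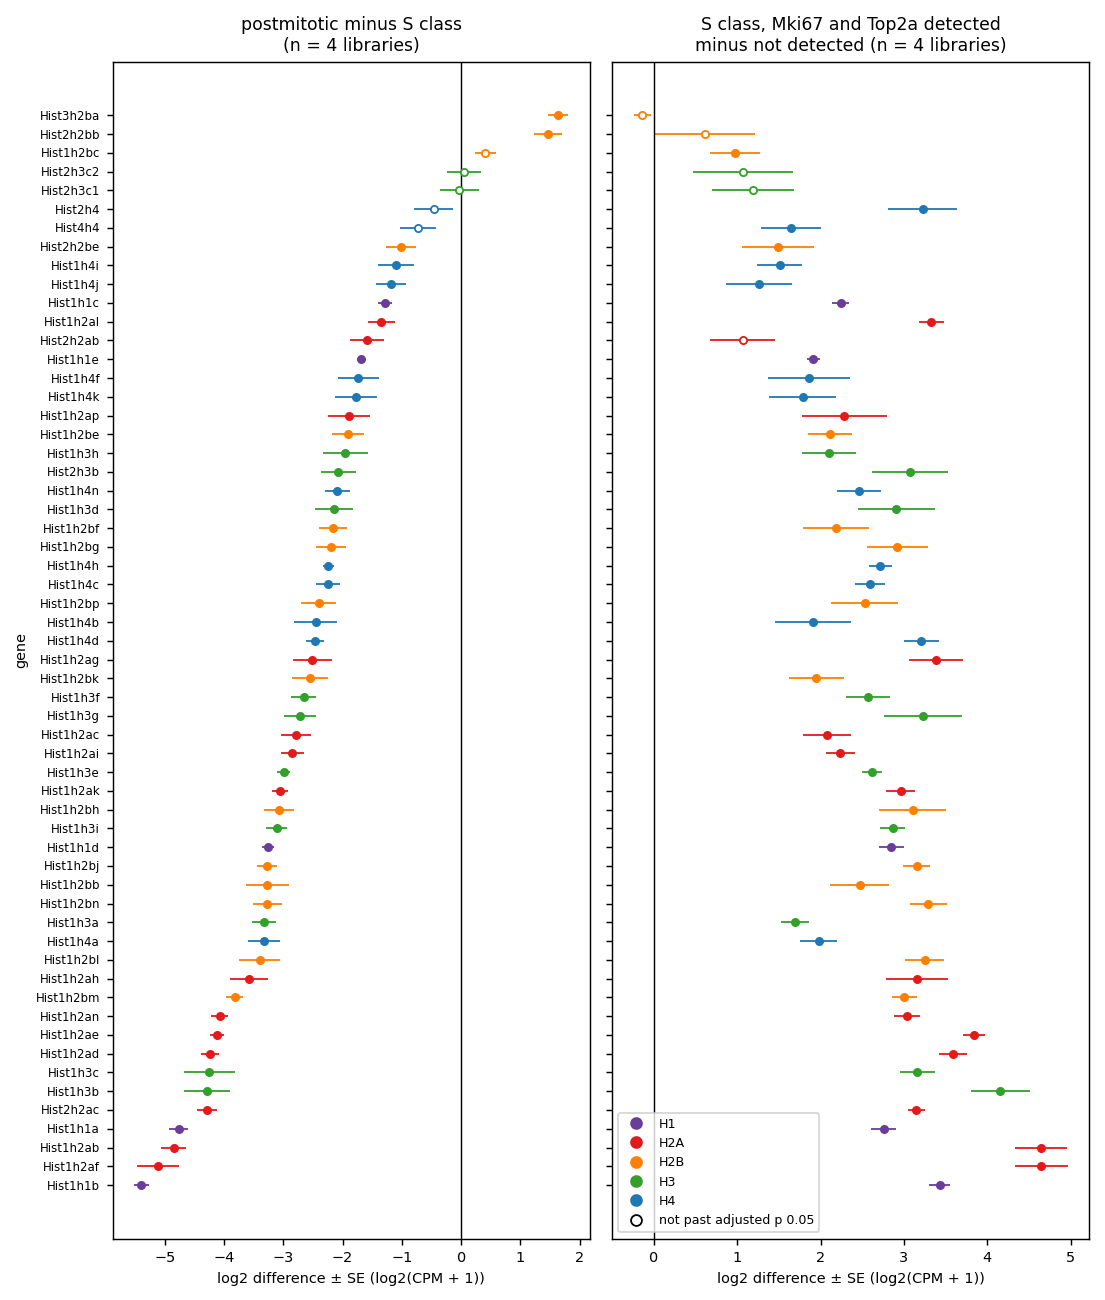
Points are log2 differences in CPM + 1 per histone gene with their SE, for postmitotic cells against the S class (left) and for S class cells with against those without Mki67 and Top2a (right), in 4 libraries each. Colour marks the family and open points did not pass the test; nearly all genes lie left of 0 in the left panel and right of 0 in the right one, and Hist3h2ba lies on the other side in both (1.64 and -0.14).

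What was left differed from gene to gene. As a share of the S class level in the same library, Hist1h1b kept 2.12%, 1.83%, 2.41% and 3.15%. Hist1h2ae kept 4.50% to 6.69%, Hist1h1d 8.89% to 11.5% and Hist1h4d 14.4% to 24.8%. Hist1h1e kept 28.7% to 32.0% and Hist1h1c 34.4% to 55.4%, so the ranges of Hist1h1b and of these H1 genes did not overlap. Over the 44 histone genes with 10 CPM or more in the S class, the median share was 11.0%, from 1.33% (Hist1h2af) to 311% (Hist3h2ba), and 20 genes were below 10%.

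Other lists measured the same way give the scale. The S phase genes kept a median of 11.8% (13 genes, 2.28% to 21.3%) and the G2 and M genes 11.3% (13 genes, 1.55% to 33.2%). The chaperones kept 19.9%, the transcription and processing genes 47.8% and the replacement histones 77.0%. Slbp fell by 1.98 on the log2 scale and Npat by 1.40, and H3f3b, a replacement H3, was higher by 0.38 (limma adjusted p = 0.0153). Because 4 cycle genes at 0 after thinning define the postmitotic class, low values of the S phase and the G2 and M lists are in part set by the definition.

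**Figure D4:**
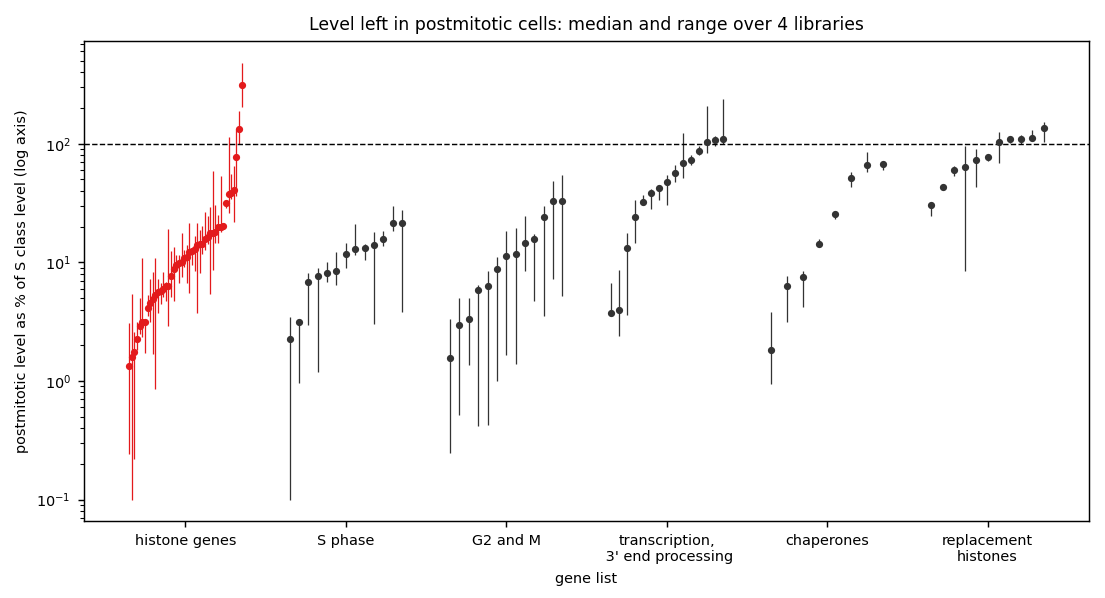
Each point is the level in postmitotic cells as a percentage of the S class level (log axis), the median over 4 libraries with the range as a bar, by gene list. Histone genes spread from 1.33% to 311%, below and above the medians of the S phase list (11.8%) and the replacement histones (77.0%).

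Detection per cell shows what the residual levels stand for. At 5000 UMIs per cell, Hist1h1b was found in 12.8% (RL e14 replicate 1) to 19.1% (RL e13 replicate 2) of postmitotic cells, and the 95% Wilson interval in the e16 library, with the most such cells, was 12.6% to 15.6%. In the S class of the same libraries it was found in 60.5%, 85.5%, 81.4% and 79.6%. Hist1h1b counts in postmitotic cells were low, with 5 or more UMIs in 0.42%, 0% (which allows a share of up to 1.37%), 0.565% and 1.02%, and a highest count of 8. Unthinned, it was found in 21.6%, 21.5%, 33.9% and 43.7% of postmitotic cells, at median depths of 10271, 13857, 19197 and 17164 UMIs.

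Rrm2, a subunit of the enzyme that makes deoxynucleotides and a gene that neurons should lack, was read beside it. It was found in 1.87%, 5.48%, 5.08% and 5.80% of postmitotic cells and in 60.5%, 76.2%, 69.6% and 72.5% of S class cells. Rrm2 is the lower gene in the S class (413 against 2061 CPM for Hist1h1b), so these shares of cells are not compared between the genes. As a share of its own S class level, Rrm2 kept 0.970%, 3.15%, 3.16% and 3.31%, above Hist1h1b in the 3 RL libraries and below it in the e16 library. Hist1h1e was found in 81.4%, 79.0%, 72.3% and 79.2% of postmitotic cells and in 92.1%, 94.2%, 88.2% and 89.6% of S class cells. The share of free RNA in these counts was not tested. These intervals and limits cover counting error only.

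Hist3h2ba was the more abundant of the 2 histone genes called higher in postmitotic cells. In postmitotic cells it was at 932, 463, 639 and 399 CPM, against 454, 143, 132 and 134 CPM in the S class, higher in 4 of 4 libraries. The log2 difference was 1.64 ± 0.17 (SE, limma adjusted p = 0.00035). This result is not independent of the lower S class level given above, since both comparisons use the S class and the postmitotic cells. The e16 S class, which carries many neuronal UMIs, had more Hist3h2ba than any RL S class. Its value (454) lay above the lowest postmitotic value (399). In that class the 16 cells with Pcna and Mcm5 only held 757 CPM of Hist3h2ba and 69.7 CPM of Rrm2. The 18 with all 4 cycle genes held 179 and 698 CPM. Whether the former were in S phase was not tested. Hist3h2ba was found in 95.7%, 77.6%, 80.2% and 79.5% of postmitotic cells and in 60.5%, 48.8%, 40.2% and 44.1% of S class cells. Hist2h2bb, an H2B gene of the Hist2 cluster, rose as well, by 1.46 ± 0.24 (SE, limma adjusted p = 0.0027), at 11.2 ± 9.57 against 3.61 ± 3.87 CPM (SD, n = 4). Hist1h2bc (0.41), Hist2h3c2 (0.05), Hist2h3c1 (-0.03), Hist2h4 (-0.46) and Hist4h4 (-0.73) did not pass the test.

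The annotated 3′ ends were set beside these differences. The 17 tested genes whose annotated transcript ends within 100 bases of the stem-loop were all lower in postmitotic cells, from -4.85 to -1.73 with a median of -3.27. The 19 tested genes with 100 bases or more after the loop, 11 of 20 of which carry AATAAA there, ranged from -4.12 to 1.64 with a median of -2.15, and 14 were lower and 1 (Hist3h2ba) higher. The 22 tested genes without an annotated loop had a median of -2.78, and 20 were lower. The groups overlap widely and were not tested against each other.

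Within the S class, cells with Atoh1, the granule lineage factor, and no Sox2 were compared with cells with Sox2, a progenitor factor, and no Atoh1, in the 3 libraries with 20 or more cells of each. Of 58 histone genes tested, 1 was higher (Hist3h2ba) and 0 lower, where 4.66% and 6.64% of all 12269 genes were; 5 histone genes had an unadjusted p under 0.05. Hist3h2ba was at 154 ± 16.7 CPM in Atoh1 cells and 106 ± 9.38 CPM in Sox2 cells (SD, n = 3), a log2 difference of 0.54 ± 0.14 (SE, limma adjusted p = 0.0194), higher in 3 of 3. The call was lost without RL e13 replicate 2 and with thinning to 3000 UMIs. Hist1h1b was at 1852 ± 354 against 2050 ± 402 CPM, which did not pass the test, and leaving out RL e14 replicate 1 gave 6 histone genes lower in Atoh1 cells.

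Between e14 and e13 in the S class (2 against 2 libraries), limma called 0 of 59 histone genes higher and 0 lower, with 8 at an unadjusted p under 0.05. The background was 0% higher and 0.00816% lower (1 of 12255 genes, with 1795 at an unadjusted p under 0.05). The median log2 difference was 0.26 over the histone genes and -0.11 over all genes, and the all-gene median moved to 0.00 with median-of-ratios scaling. Without RL e13 replicate 2, 13 histone genes were called higher at e14, and without RL e13 replicate 1 it was 1. These fits set 2 libraries against 1, so the lone e13 library is assumed to vary like the e14 pair, and their counts are not comparable with that of the full comparison.

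Some histone genes differed between libraries of the same age. Hist1h4d was at 597, 546, 27.0, 32.5 and 409 CPM in the S class of the e16 library, RL e14 replicates 1 and 2 and RL e13 replicates 1 and 2. Hist1h3c was at 134, 272, 20.4, 12.5 and 317 CPM, and Hist1h2ae, an H2A gene of the same block, at 1363, 662, 198, 105 and 844 CPM. The e16 library, RL e14 replicate 1 and RL e13 replicate 2 were high in all 3 genes, and the other two libraries were low. Hist1h1b, in contrast, stayed between 1692 and 2284 CPM in these libraries.

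The thresholds used to count such genes were set after these values were seen, and no test was made. Of 9809 genes with 5 CPM or more in the S class, 17 (0.173%) were at least 2-fold higher both in RL e14 replicate 1 than in replicate 2 and in RL e13 replicate 2 than in replicate 1. They included 10 of 53 histone genes (18.9%): Hist1h1d, Hist1h2ae, Hist1h2be, Hist1h2bh, Hist1h3c, Hist1h3e, Hist1h3f, Hist1h4b, Hist1h4d and Hist1h4i. In the opposite pattern there were 9 genes and no histone gene. At 4-fold there were 2 genes, Hist1h3c and Hist1h4d. In cells without Pcna and Mcm5, 6 of the 9 genes with the pattern were histone genes, and in the G2/M class 9 of 15, with Hist1h2ad the other way. Xist, the RNA of the inactive X chromosome, was among the 7 other genes of the S class, at 311, 1063, 393, 165 and 705 CPM, and Uty, on the Y chromosome, had the opposite pattern at 14.7, 4.36, 10.9, 23.6 and 9.89 CPM. The sources used here do not give the sex makeup, strain and kit version of each library, and their part in these differences was not tested.

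**Figure D5:**
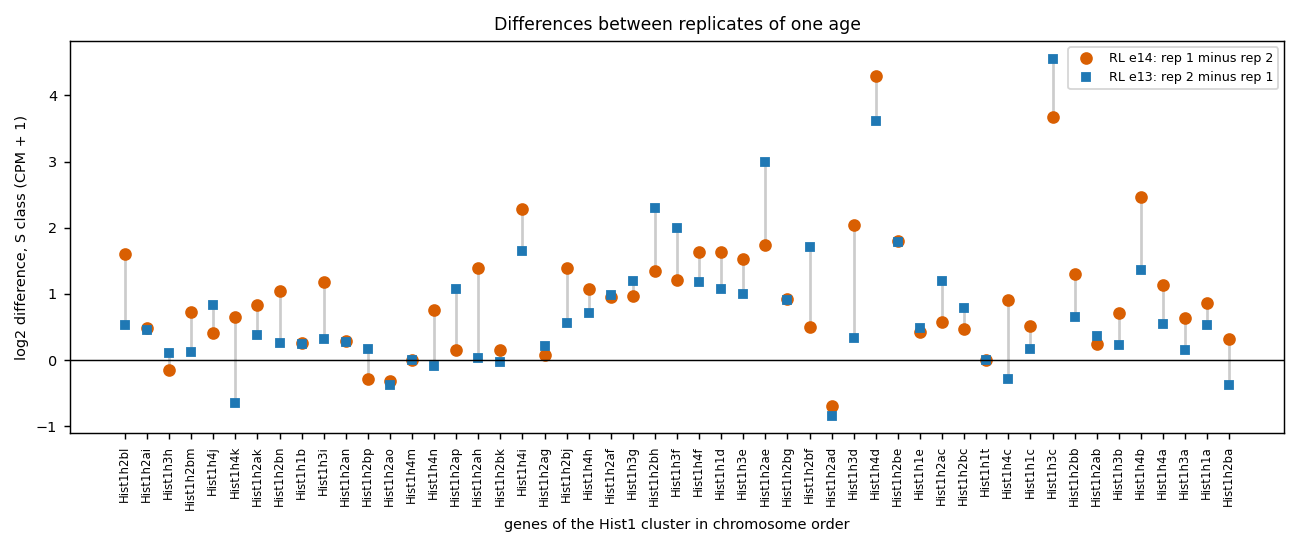
Points are log2 differences in CPM + 1 in the S class between the 2 libraries of one age, for the Hist1 genes in chromosome order. Hist1h3c and Hist1h4d stand highest at both ages (3.67 and 4.56, 4.29 and 3.61), and most neighbours lie closer to 0.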

How the data were processed

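Single-cell RNA sequencing covered 5 libraries of mouse cerebellum. Per the submitters' processing notes, Cell Ranger and build mm10 were used; filters on cells and doublets are not stated in what was used here. The authors deposited natural log values, and each equals ln(1 + x), where x is the UMI count of a gene per 10000 UMIs of its cell. Whole UMI counts within 0.01 came back for 29540669 of 29540669 non-zero values (100%; largest deviation 0.000894). The batch name that matched no title was taken as the e16 library.

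Cells were thinned to 5000 UMIs to set the classes, and profiles of 20 or more cells were averaged as CPM. Genes averaging at least 1 CPM were tested with limma 3.58.1 (R 4.3.3, trend) on log2(CPM + 1), which understates changes of low genes, with the library as a block within libraries, Benjamini-Hochberg over all genes and a threshold of 0.05. The code was tested on simulated data. Members and lists were chosen with earlier results of these data known. Every histone gene tested could be named; of each other list, at most 3 called genes with the largest difference per direction, and Slbp, Npat and Casp8ap2. Alternatives changed thinning, pseudocount, filter, scaling, block, summing, deepest cells, class rules and each library. No doublet caller was run, and no cluster was made.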

Additional observations from a re-analysis of the deposited data

Results flagged for a closer look

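The 49 cells under 5000 UMIs entered no class. They held 486 UMIs of the 62 histone genes among 222144 UMIs, or 2188 CPM. That this lies above the 13.5 CPM that a count of 0 would allow (3 counts) says only that the genes were detected. The mean over the cells of 5000 UMIs or more was 2274 to 4491 CPM by library.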

How the results depend on the processing

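No paired analysis was possible because the e13 and e14 libraries share only 1 replicate number in the labels, number 2: the title of RL e14 replicate 1 carries none, and no label ties a number to a litter or batch. Comparisons within libraries carry the library as a block. The counts of histone genes changed by over 1.5 times as follows, and the cause was not tested except where fewer genes or libraries entered. For the S class against cells without Pcna and Mcm5, 33 were higher with a filter at 10 CPM and 25 without the block, and 37 to 51 with 1 library left out; lower were 1 with the other S phase genes, 0 without the block and 2 to 3 with 1 library left out. Against G2/M, 19 were higher without thinning, 18 with the other S phase genes and 1 with G2/M cells without Pcna and Mcm5; lower were 1, 0 and 2 in the same settings, 13 from summed UMIs, 1 without the block and 10 to 37 with 1 library left out. In that comparison, log2 differences changed sign without thinning and with the other S phase genes: Hist1h1b to 1.01 and 1.22, Hist1h3c to 0.30 and 0.52, Hist1h4h to 0.44 and 0.62, Hist1h4d to 0.34 and 0.69, Hist1h3e to 0.51 and 0.58. Hist1h1c went to 0.25 with the other S phase genes, and Hist1h1b to 0.14 with G2/M cells without Pcna and Mcm5. For postmitotic cells against the S class, higher were 1 with the 10 CPM filter, 1 without the block and 2 to 3 with 1 library left out, and lower 33 with the filter and 48 to 54 with 1 library left out. For Atoh1 against Sox2, higher were 0 at 3000 UMIs and 0 to 1 with 1 library left out; lower were 1 at 3000 UMIs, 5 without thinning, 1 from summed UMIs, 2 with the other S phase genes and 0 to 6 with 1 library left out. For e14 against e13, 2 were higher by age tag and 0 to 13 with 1 library left out, each against a lone library. Between S class cells with and without Mki67 and Top2a the count stayed within 1.5 times in 14 of 14 alternatives, while median-of-ratios scaling moved all calls from 742 higher and 566 lower to 827 and 404. Depth limits the genes with few UMIs: Hist1h1t, with 11, was tested in no comparison.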

Other observations

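Hist1h4m, an H4 gene of the first block on chromosome 13, had 34 UMIs. All were in the e16 library, with 0 in each of the RL libraries. Hist1h4n, an H4 gene of the same block, has the same letters around its stem-loop up to the annotated end of Hist1h4m. It had 99 UMIs in the e16 library. In RL e14 replicates 1 and 2 and RL e13 replicates 1 and 2 it had 336, 186, 191 and 507. How reads were split between these copies was not tested, so the values of each are uncertain.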
